A study of Macrobrachium rosenbergii with 9 samples.

Results

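Among 21071 transcripts measured in gonads and androgenic glands of the giant freshwater prawn, 227 were present at a moderate and similar level in every testis library and at least 4 times above every other library. The members were chosen from the measured values themselves. CPM, the count of a transcript per 1000000 counts of its library, had to reach 10 in each testis library. The highest testis CPM could be at most 4 times the lowest, and the lowest testis CPM had to be at least 4 times the highest CPM of the 6 androgenic gland and ovary libraries. Levels in testis and the distance from testis to the other tissues are therefore given as a description, from which no support is drawn. Of 6298 transcripts with at least 10 CPM in each testis library, 5971 were steady by this rule, and 227 of those were testis-enriched.

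The study sampled adult Macrobrachium rosenbergii of the strain labelled CMr1, with 3 libraries each of male testis, male androgenic gland and female ovary. No treatment or genetic change was given for any group. No label ties a library to an animal of its own. P-values therefore measure the spread between these libraries, which may be technical. In prawns the testis holds germ cells at successive stages of sperm formation together with supporting cells, and its makeup changes with the reproductive cycle. Decapod sperm carry no flagellum. The androgenic gland, attached to the sperm duct, is the endocrine organ that drives male differentiation, and the ovary forms yolky oocytes. In bulk tissue, fewer cells of a type and less RNA per cell cannot be told apart.

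Library totals ran from 7142794 to 11231573 counts. A level of 10 CPM stood for 71.4 counts in testis 3, the shallowest library, and 98.7 in testis 2, the deepest testis library. The lowest count of any member in any testis library was 75, for which counting error alone is 11.5%. A count of 0 allows up to 3 counts, which is 0.267 to 0.42 CPM depending on the library. The files give no gene names, and 0 of 21071 transcript IDs could be found among the 31758 genes of the RefSeq table (assembly ASM4041242v1). No marker list of testis, gland or ovary cells could therefore be read, and members are described by ID, length, the word Male or Female in the ID, and their values. Several transcripts can come from 1 gene and share its reads.

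Together the members took a small and even part of the testis RNA. They held 2.11% of the counts in testis 1, 2.48% in testis 2 and 2.34% in testis 3, a mean of 2.31% ± 0.188 (SD, n = 3). In androgenic gland they held 0.107%, 0.0683% and 0.0994% in libraries 1 to 3, and in ovary 0.229%, 0.239% and 0.239%. The lowest testis library was thus far above every library of the other tissues, as the rule requires. The median member stood at 49.5, 62.5 and 58.5 CPM in testis 1 to 3. Its counterpart was 1.25, 0.672 and 1.25 CPM in androgenic gland and 4.23, 4.07 and 4.14 CPM in ovary.

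**Figure D1:**
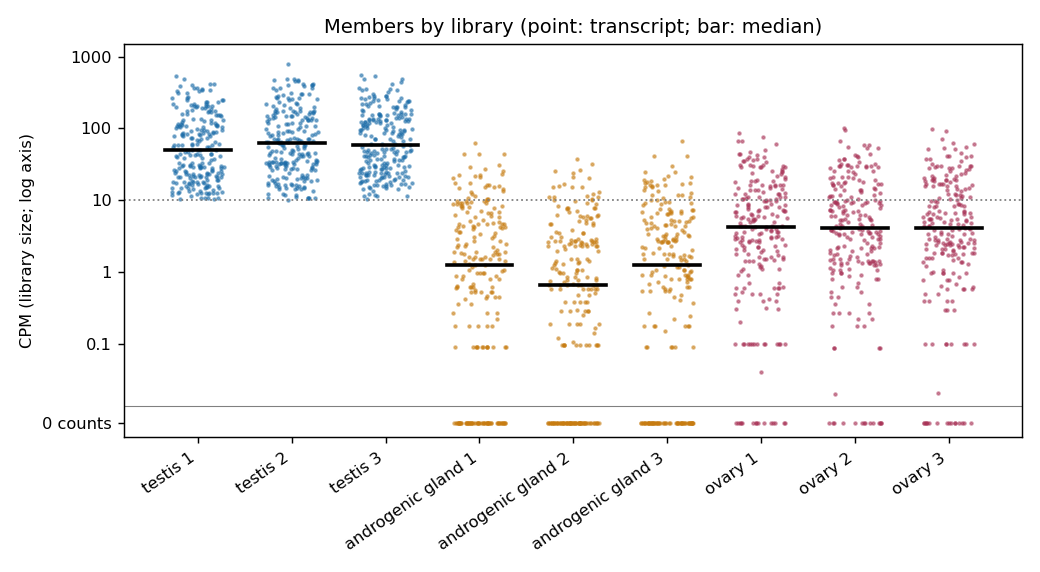
Each point is 1 of the 227 members in 1 library, on a log axis of CPM scaled to library size, with members without a count drawn on the line marked 0 counts; black bars are medians and the dotted line marks 10 CPM. The testis medians lie between 49.5 and 62.5 CPM, the ovary medians near 4 CPM, and the androgenic gland libraries hold the most members without a count, 56, 65 and 60.

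Per kilobase of transcript, mean testis levels of members ranged from 4.07 to 303 CPM with a median of 26.9. The most abundant member ranked only 322 among all transcripts on this scale, so the steady testis-enriched transcripts were not the dominant RNAs of the testis. That member, a male-word transcript of 1362 bases, had 339.6, 362 and 538 CPM in testis 1 to 3. It also kept 32.4 to 67.7 CPM in androgenic gland and 67.3 to 76.7 CPM in ovary. The next, a female-word transcript of 1797 bases, was far more even among testes, at 419.9, 457 and 416 CPM, or 240 CPM per kilobase. Among the 10 members highest per kilobase, 4 IDs held the word Female and 6 Male. The 10 also differed in what remained outside testis. A female-word transcript of 2896 bases had 486, 406 and 496 CPM in testis, at most 1.08 CPM in any androgenic gland library, and 67.8, 101 and 97.9 CPM in ovary. A male-word transcript of 1039 bases had 156, 88 and 239.5 CPM in testis, 0 counts in every androgenic gland library, and at most 1.42 CPM in ovary.

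Members lay close to the enrichment limit more often than far from it. The lowest testis CPM was a median of 5.83 times the highest CPM outside testis, with a library at 0 counts set to 3 counts. For 71 members this ratio was under 5, for 65 it was at least 10, and for 11 at least 100. The 3 members nearest the limit had ratios of 4.01, 4.02 and 4.04, and the 3 transcripts just outside had 3.97, 3.96 and 3.96. At the limit on level, the lowest testis CPM was 10.2, 10.3 and 10.4 in the nearest members against 9.89, 9.86 and 9.65 in the nearest transcripts left out. At the limit on steadiness, the highest testis CPM was 3.97, 3.97 and 3.90 times the lowest in the nearest members and 4.11, 4.31 and 5.57 times in the nearest transcripts left out.

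Most members varied far less among testes than the rule allowed. The highest testis CPM was a median of 1.58 times the lowest, at most 1.5 times in 98 members, at most 2 times in 174 and over 3 times in 11. The 5744 transcripts that were as steady but not testis-enriched had the same median of 1.58. By level, the median ratio was 1.56 in the 53 members under 25 CPM, 1.62 in the 92 members from 25 to under 100 CPM, and 1.56 in the 82 members at 100 CPM or more. The ratio was at most 2 in 37 of the 53, in 65 of the 92 and in 72 of the 82. The steadiest member, a female-word transcript of 2259 bases, had 209.4, 208 and 211 CPM in testis 1 to 3, at most 0.54 CPM in androgenic gland and 16.3, 19.4 and 21.6 CPM in ovary. A male-word transcript of 1295 bases was nearly as even at a lower level, with 19.2, 19.3 and 18.5 CPM in testis and at most 0.18 CPM in any other library.

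Another 31 transcripts passed the limits on level and enrichment and failed the limit on steadiness. This count leaves out uneven transcripts that fell under 10 CPM in any testis library, so it does not show that evenness was the more common pattern. With testis 2 left out of the rule 439 transcripts passed, of which 293 had at least 10 CPM in testis 2. The median testis level of the 31 was 3283 CPM, and their highest testis CPM was a median of 455 times the lowest. In 26 of the 31 the lowest library was testis 2. Among members, 102 of 227 were highest in testis 2, 86 in testis 3 and 39 in testis 1. That is 44.9% highest in testis 2, against 33.3% of the 5744 steady transcripts that were not testis-enriched. From testis 1 to testis 2 the median member changed by 0.22 on the log2 CPM scale, and 146 members (64.3%) were higher and 81 lower in testis 2. Over all transcripts with more than 3 counts in each testis library the median change was 0.013, and 50.7% were higher. With TMM factors, which scale each library to the bulk of its transcripts, 116 members were highest in testis 2 and 47 in testis 3. The 5744 steady transcripts without enrichment had the same order on that scale, with 2430 highest in testis 2 and 1435 in testis 3. The rule needs 10 CPM in each testis library, so it can shape this order, and how far it does was not tested. The 5744 met the same limits on level and steadiness as members.

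**Figure D2:**
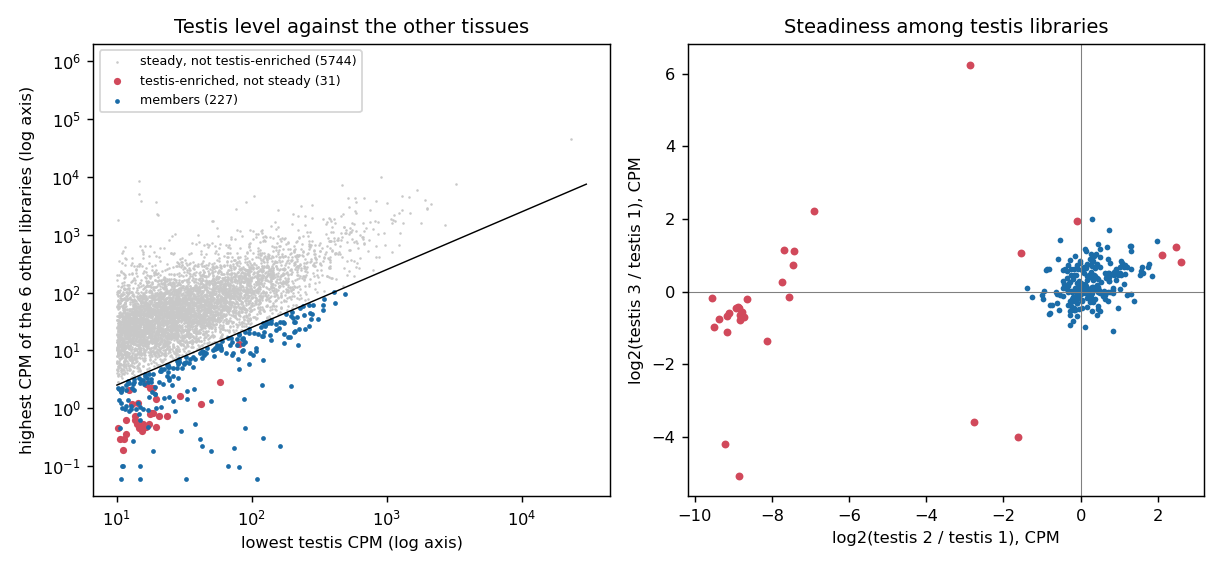
Left, the lowest testis CPM against the highest CPM of the 6 other libraries on log axes for members, for testis-enriched transcripts that were not steady, and for steady transcripts that were not enriched; the line marks a ratio of 4, and transcripts with 0 counts outside testis are drawn at the bottom. Right, log2 ratios of testis 2 and testis 3 to testis 1: members crowd around 0 while 26 of the 31 unsteady transcripts are lowest in testis 2.

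Length and the ID words were not used by the rule. The median member was 2231 bases long, within a range of 710 to 6145 bases. The median was 2025 bases among the 5744 steady transcripts that were not testis-enriched and 1511 bases among all 21071. Of the members, 135 (59.5%) were 2000 bases or longer, against 51.1% of the steady transcripts without enrichment and 30.1% of all. Members under 25 CPM had a median length of 1793 bases and those at 100 CPM or more of 2773 bases, so length moved with the CPM level that the rule uses. The word Female stood in 79 member IDs (34.8%), against 57.3% of the steady transcripts that were not enriched and 70.1% of all. None of the 31 unsteady testis-enriched transcripts carried it. The labels do not say from which tissues or animals the Male and Female sequences were read, so the words are not independent evidence of a tissue pattern. The letters LQ stood in 1 member ID and 244 IDs in all. In the ID format of long-read isoform software, which these IDs resemble, the number after f counts full-length reads. It was 2 in 121 members (53.3%) and in 52.8% of all transcripts.

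Deposited counts with decimals show that reads were shared out between transcripts. For 105 members (46.3%) the counts were whole in all 9 libraries, against 36.9% of all transcripts. The levels of the other 122 members depend in part on how reads were split among similar transcripts.

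What remained of the members outside testis fell into 4 patterns. A member was taken as missing from a tissue when each of its 3 libraries had at most 3 counts. By this measure 157 members (69.2%) were present in androgenic gland and in ovary, 49 (21.6%) in ovary but not androgenic gland, 4 (1.76%) in androgenic gland but not ovary, and 17 (7.49%) in neither. The lean toward ovary was general: over all 21071 transcripts 62.7% were present in both tissues, 24.4% in ovary only, 4.52% in androgenic gland only and 8.37% in neither. Among steady transcripts that were not testis-enriched, 96.6% were present in both tissues, 2.92% in ovary only, 0.522% in androgenic gland only and none in neither. A steady transcript missing from both would have passed the rule, so that last share is fixed by it. The word Female stood in 44.6% of the members present in both tissues, in 18.4% of those missing from androgenic gland only, and in 0 of the 21 members missing from ovary. Shares of the word over all transcripts of each pattern were not computed, so these are not read as particular to members. Members present in both tissues had a median length of 2313 bases, and those in neither of 1493 bases. These patterns depend on the limit: with 0 counts required, 4 members were in neither tissue, and with up to 10 counts allowed, 30 were. The limit is on counts without TMM factors, which were 0.38 to 0.575 in androgenic gland and 1.48 to 1.58 in ovary. Such factors raise the gland and lower the ovary, and the patterns were not computed on that scale.

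The members missing from both other tissues had at most 3 counts in each of those 6 libraries. Their mean testis levels ran from 16.6 to 196 CPM. All 17 carried the word Male, again with no share over all transcripts of that pattern to set beside it. There were 4 members with 0 counts in all 6 libraries outside testis. The most abundant of these, of 2460 bases, had 108, 199 and 159 CPM in testis 1 to 3. It was at least 3347-fold higher in testis than in the other tissues combined, with 3 counts over all 6 libraries as the floor. The other 3, of 1010, 1939 and 853 bases, averaged 38.4, 26.2 and 17.8 CPM in testis, and their bounds were 799.5-fold, 528-fold and 368-fold.

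The naming rule, the largest ratio of the lowest testis CPM to the highest CPM elsewhere, gave a pair of these members. For transcript_HQ_Male_transcript410/f11p0/3453, of 3452 bases, testis 1 to 3 stood at 168, 160.5 and 259.9 CPM. All androgenic gland libraries and ovary 1 and 3 had 0 counts, and ovary 2 had 2.48 estimated counts. Its testis level was at least 2077-fold that of androgenic gland, with 3 counts over the tissue as the floor. With the ovary total rounded down to 2 counts, its ratio to ovary was 2982, with a 95% counting interval of 825 to 24633. For transcript_HQ_Male_transcript1041/f8p0/2884, of 2872 bases, the testis libraries had 121, 129 and 173 CPM, with 2 counts in all over androgenic gland and 5 over ovary. The ratio was 2267 to androgenic gland (627 to 18730) and 868 to ovary (372 to 2675). Whether these few counts come from the tissue or from stray reads was not tested.

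Whether androgenic gland or ovary kept more of a member was not fixed by the rule, which set the same limit on library-size CPM for both. On the TMM scale that limit is looser for androgenic gland than for ovary. Shares called with TMM factors, and their distance from the background, therefore depend in part on the rule. The difference between androgenic gland and ovary was tested with edgeR's quasi-likelihood test over all 17043 transcripts with enough counts, all 227 members included. Calls were made at 0.05 after Benjamini-Hochberg adjustment and a change of at least 2-fold. Some members had enough counts only with the testis libraries included, so shares of the 227 include members nearly empty in both tissues. Fitted without testis, 171 members were tested, 37 called for androgenic gland and 40 for ovary. The share of all transcripts called in that fit was not computed, so nothing is read from these counts. The median log2 fold change of the 171 members was 0.17, against -0.66 in all transcripts of that fit. With TMM factors, 43 members (18.9%) were higher in androgenic gland, where 20.1% of all tested transcripts were called. In the other direction 52 members (22.9%) were higher in ovary, where 39.4% of all transcripts were called. The share higher in androgenic gland was near the background, and the share higher in ovary was below it. Among the 5744 steady transcripts that were not testis-enriched, 24.7% were higher in androgenic gland and 29.4% in ovary. The difference between members and these was not tested. The median log2 fold change, androgenic gland over ovary, was 0 in members, -0.14 in the steady transcripts that were not enriched and -0.65 in all transcripts.

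The balance between the tissues depended on the scaling. Scaled to library size, the scale of the rule, 8 members were higher in androgenic gland (3.52%, background 6.76%) and 119 in ovary (52.4%, background 62.4%). Calls in favour of androgenic gland were 45.3% of the members' calls with TMM factors and 6.3% without them. The median log2 fold change went to -1.31 in members and to -2.18 in all transcripts. TMM factors were 0.38 to 0.575 in androgenic gland and 1.48 to 1.58 in ovary, so they raise the gland and lower the ovary. All 8 members called for androgenic gland on library size were also called with TMM factors, and so were 52 of the 119 called for ovary. No member was called in opposite directions under the 2 scalings.

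**Figure D3:**
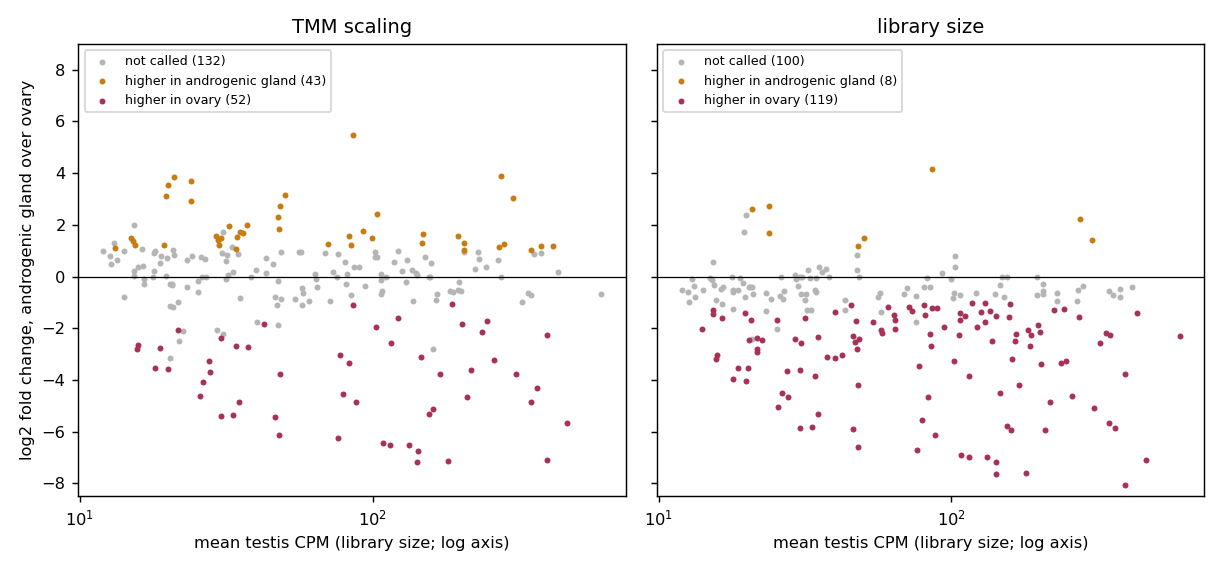
Log2 fold change of androgenic gland over ovary for each of the 227 members against its mean testis CPM (log axis), with TMM scaling on the left and library size on the right; colours mark edgeR calls. With TMM factors 43 members are called for androgenic gland and 52 for ovary, and on library size 8 and 119.

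The calls can be split by the 4 patterns of what remained. Of the 49 members missing from androgenic gland but present in ovary, 37 were called higher in ovary with TMM factors and 46 on library size, and none was called for androgenic gland. The 4 members missing from ovary but present in androgenic gland were all called for androgenic gland with TMM factors and 3 of them on library size. Of the 17 members in neither tissue, 0 were called with TMM factors and 2 were called for ovary on library size. These patterns and the calls rest on the same counts. Of the 157 members present in both tissues, 39 were called for androgenic gland and 15 for ovary with TMM factors, against 5 and 71 on library size. The direction for the members present in both tissues therefore turned around with the scaling, with a median log2 fold change of 0.55 with TMM factors and -1.03 without. Over all tested transcripts calls moved the same way, from 20.1% for androgenic gland and 39.4% for ovary to 6.76% and 62.4%. No share of calls over all transcripts of each pattern was computed, so the counts by pattern are a description. On library size CPM, androgenic gland and ovary did not overlap in 136 members with ovary above (59.9%, background 68.7%) and in 7 with androgenic gland above (3.08%, background 8.51%). On the TMM scale these were 69 (30.4%, background 46.8%) and 64 (28.2%, background 25.4%).

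Single members showed these directions under either scaling. For transcript_HQ_Male_transcript407/f3p0/3473, of 3473 bases, androgenic gland 1 to 3 had 9.30, 21.1 and 17.6 CPM and ovary 1 to 3 had 3.22, 3.38 and 3.45 CPM, below 204, 249.9 and 369.9 CPM in testis. Every androgenic gland library was above every ovary library. The log2 fold change was 3.91 ± 0.428 with TMM factors (edgeR quasi-likelihood, Benjamini-Hochberg adjusted p = 0.000157) and 2.22 on library size (edgeR, adjusted p = 0.000664). The value after ± is a rough SE, obtained by dividing the log2 fold change by the root of F. As a ratio of library-size totals it was 4.74, with a 95% counting interval of 3.84 to 5.90. For transcript_HQ_Female_transcript6926/f2p0/2024, of 2024 bases, androgenic gland had 9.14, 8.36 and 6.96 CPM and ovary 3.97, 3.83 and 0.635 CPM, with 50.1, 59.8 and 41 CPM in testis. The tissues again did not overlap, and ovary 3 was lowest. Its log2 fold change was 3.16 ± 0.619 with TMM factors (edgeR, adjusted p = 0.00241) and 1.51 on library size (edgeR, adjusted p = 0.0374). With TMM factors this member was not called higher in testis than in androgenic gland. That log2 fold change, testis over androgenic gland, was 1.15 (edgeR, adjusted p = 0.138).

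The members furthest toward ovary had no count in androgenic gland. For transcript_HQ_Male_transcript1082/f2p0/2810, of 2800 bases, ovary 1 to 3 had 16.2, 25.9 and 17.1 CPM and testis 126, 142 and 158 CPM. On library size, androgenic gland was at least 218-fold lower than ovary, with 3 counts over the gland as the floor. With TMM factors, which bring the tissues closer, the log2 fold change was -7.17 (edgeR, adjusted p = 6.08e-05). For transcript_HQ_Male_transcript3008/f7p0/2103, of 2103 bases, ovary had 7.95, 30.1 and 19.6 CPM and testis 230.3, 191 and 121 CPM. Its ovary libraries were more spread, and androgenic gland was at least 215-fold lower (edgeR, adjusted p = 0.000637). These calls also held on library size (edgeR, adjusted p = 2.31e-05 and 0.000104).

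**Figure D4:**
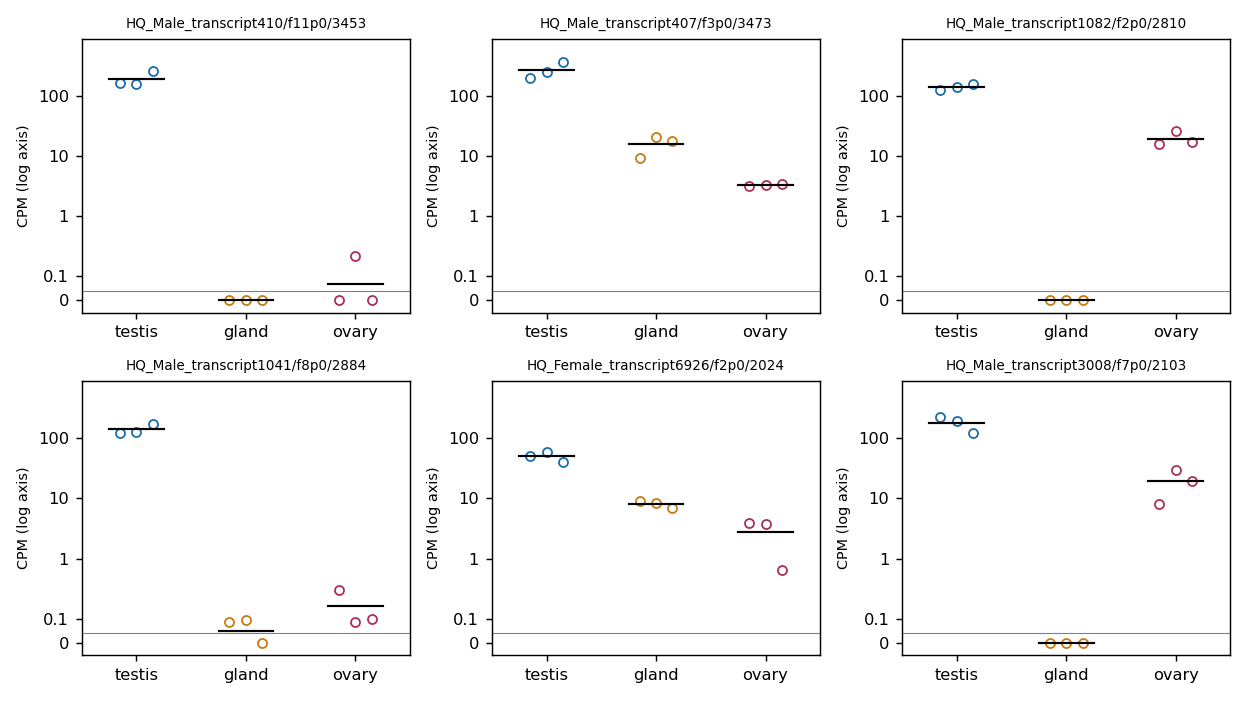
CPM on a log axis in each library (circles) and the tissue mean (bars) for the 6 transcripts named in the text, with libraries without a count drawn at the mark 0. Left column, the pair with the largest testis enrichment; middle, the pair higher in androgenic gland than ovary; right, the pair higher in ovary, with 0 counts in androgenic gland.

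The size of the testis enrichment over each other tissue depended on the scaling. Over members, the mean testis CPM was a median of 34.9 times that of androgenic gland and 10.1 times that of ovary on library size. With TMM factors the medians were 13.4 and 11.5 times, which lie closer together. On the TMM scale 32 members were under 4-fold over androgenic gland, and 0 were under 4-fold over ovary. In the edgeR fit 223 members were called higher in testis than in androgenic gland, in a background of 26.9%, and 227 higher than in ovary, in a background of 19.6%. The rule used these differences, so nothing is read from these counts. The median log2 fold change was 3.65 over androgenic gland and 3.48 over ovary, against 0.28 and -0.08 in all tested transcripts. Those comparisons share the testis libraries.

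Membership itself depended on testis 2 and on the scaling. With testis 2 left out of the rule 439 transcripts passed, 227 of them the members, and 293 of the 439 had at least 10 CPM in testis 2. Leaving out a library can only loosen the rule, so all members pass again by design. Leaving out testis 1 gave 315 transcripts and testis 3 gave 258. In the library left out, the level was at least 4 times the highest CPM outside testis for 250 of the 315 in testis 1, 364 of the 439 in testis 2 and 235 of the 258 in testis 3. The 227 members are in each of these counts by the rule. With CPM on the TMM scale 157 transcripts passed, of which 137 were members, 60.4% of the members and 87.3% of the transcripts that passed.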

How the data were processed

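The members, lists and tests were chosen with earlier results of these data known. The values are expected counts, not always whole, in 1 table that the authors deposited with each transcript's length; the file headers call them read counts. Bowtie 0.12.2, DESeq 1.10.1 and the build mm8, a mouse build, are named per the submitters' processing notes. Their roles, the counter and its strand setting: not given in the sources used here. Per the labels' protocols the libraries were made with a directional Illumina kit. Columns were tied to samples by tissue abbreviation, sex and number.

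Members were found on CPM scaled to library size. For tests the expected counts were rounded, transcripts were kept with filterByExpr (minimum count 10, minimum total 15), and 1 model with a coefficient for each tissue was fitted to the 9 libraries in edgeR 4.0.16 (R 4.3.3), TMM factors and a prior count of 1. P-values were adjusted over all 17043 transcripts tested. DESeq2 1.42.0 was an alternative. The fit was tested on simulated data. Ratios use tissue totals on library size with exact 95% intervals, and intervals and floors of 3 counts cover counting error only. At most 2 IDs in each direction were named per comparison: those with the largest enrichment for testis, and, for androgenic gland against ovary, the largest fold changes among called members without overlap and with a mean of at least 1 CPM in the higher tissue.

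Same-numbered libraries of testis and androgenic gland moved together around their tissue means, with correlations of 0.417, 0.388 and 0.289 across transcripts. An alternative fit therefore added a term for the number, which tied same-numbered libraries of all tissues, ovary included. This pairing comes from the data, not from the labels.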

Additional observations from a re-analysis of the deposited data

How the results depend on the processing

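The number of transcripts passing the rule went from 227 to 133 with DESeq2 size factors, of which 121 were members, to 734 with an enrichment of 2 times and to 81 with 8 times. Leaving out each library in turn gave 227 to 439 transcripts, the most without testis 2. A rule on fewer libraries is looser, so every member passes again and the count cannot fall below 227. Scaling to library size gave 8 members higher in androgenic gland and 119 higher in ovary, in place of 43 and 52, while DESeq2 gave 42 and 63. Leaving out each library in turn gave 31 to 42 and 47 to 57 for these counts. With a replicate block, which tied the ovary libraries by number too, the counts were 41 and 52. Counts of members higher in testis are fixed by the choice of members, so their values under the alternatives are no sign of stability. Numbers did not pair ovary with the male tissues, with correlations of -0.14 to 0.00855 between same-numbered libraries. The block therefore had no basis for ovary. The 4 transcripts named for androgenic gland against ovary kept their direction and calls under every alternative run. They were chosen for large fold changes without overlap in these same counts, so no support is drawn from this. Members with few counts outside testis are limited by depth: 17 had at most 3 counts in each library of both tissues, 4 with 0 counts required and 30 with up to 10 allowed, limits added after the data were seen.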
